A study of Mus musculus with 26 samples.

Results

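The Obox genes are a mouse family of homeobox genes whose mRNA is stored in the oocyte. The 5 members described here, Obox1, Obox2, Obox3, Obox5 and Obox6, are the rows of a raw count table whose Ensembl identifiers carry these symbols in the GENCODE vM21 annotation. They are 5 of 55401 rows, and 55 rows have a symbol that starts with Obox. RNA was sequenced from 26 libraries of mouse MII oocytes, the ovulated eggs that wait in metaphase of the second meiosis for a sperm, and of 1-cell embryos made by in vitro fertilisation. The oocytes came from superovulated B6D2F1 females aged 8 weeks, and the embryos had B6D2F1 parents on both sides.

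The libraries were numbered by the submitters in 2 series. In the first, 7 libraries of embryos given the c-Myc inhibitor 10058-F4 were set beside 7 of untreated embryos. This compound interferes with the pairing of c-Myc and Max. By the protocol, embryos met it 2 h after insemination and stayed in it for 10 h, at a dose that the sources used here do not state. In the second series, 4 libraries of MII oocytes (labelled 0 h), 4 of untreated embryos and 4 of embryos given alpha-amanitin were made. Alpha-amanitin is a fungal poison of RNA polymerase II, and embryos were kept in 100 µg/ml of it for 10 h, starting 1 h after insemination. All embryos are labelled as 10 h old, which conflicts with the protocol's times: these add up to 12 h after insemination for 10058-F4 and 11 h for alpha-amanitin. Whether treated and control embryos were of 1 age was not tested. The protocol also names another c-Myc inhibitor, MYCi975, but the treated libraries are all labelled 10058-F4. The labels used here name no vehicle for either control group. The library kit amplifies total RNA, and the labels describe direct lysis of the embryos. No label ties libraries to separate females or fertilisations, so p-values measure only the spread between these libraries, which may be technical.

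Homeobox genes encode transcription factors that bind DNA through a homeodomain. Obox proteins belong to the paired class and carry a lysine at the homeodomain position that in this class sets the preferred DNA letters, as do Crx and Otx2. In the mouse, maternally stored and early embryonic Obox proteins are known to take part in the activation of the embryo's genome.

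The members lie together on chromosome 7 of GRCm38. Obox2 (ENSMUSG00000074369, chr7:15388721-15398545, forward strand) is overlapped by the annotated span of Obox1 (ENSMUSG00000054310, chr7:15388948-15556866, forward strand), and the exons of both share 59 bases. Obox3 occupies chr7:15479825-15639902 on the reverse strand, inside the span of Obox1 for part of its length. Obox5 lies at chr7:15750131-15759800 on the forward strand and Obox6 at chr7:15833241-15839678 on the reverse strand. All 5 are annotated as protein coding.

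The start of the coding sequence shows how alike the copies are, and it is printed because counts can be split between genes only where their letters differ. The lines below give 150 coding bases of each member, read from GENCODE vM21 transcripts, from the start codon in Obox1, Obox2, Obox3 and Obox5 and from coding base 28 in Obox6. Capitals mark letters that differ from Obox1.
Obox1: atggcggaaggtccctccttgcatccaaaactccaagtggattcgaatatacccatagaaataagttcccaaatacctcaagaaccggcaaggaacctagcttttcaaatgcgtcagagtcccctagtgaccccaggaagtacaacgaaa
Obox2: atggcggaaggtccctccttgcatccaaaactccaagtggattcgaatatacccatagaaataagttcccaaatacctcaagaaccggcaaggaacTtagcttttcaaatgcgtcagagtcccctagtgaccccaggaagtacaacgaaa
Obox3: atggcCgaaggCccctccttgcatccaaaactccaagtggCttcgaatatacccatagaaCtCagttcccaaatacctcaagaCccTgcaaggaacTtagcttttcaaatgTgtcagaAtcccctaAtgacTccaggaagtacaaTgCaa
Obox5: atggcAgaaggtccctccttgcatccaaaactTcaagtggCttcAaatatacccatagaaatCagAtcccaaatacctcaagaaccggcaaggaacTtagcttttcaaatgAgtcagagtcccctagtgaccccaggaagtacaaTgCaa
Obox6: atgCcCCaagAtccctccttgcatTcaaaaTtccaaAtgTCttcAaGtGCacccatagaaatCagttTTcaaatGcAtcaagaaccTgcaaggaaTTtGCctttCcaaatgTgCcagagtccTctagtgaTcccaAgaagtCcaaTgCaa
Within these 150 bases Obox2 differed from Obox1 at 1 base, Obox5 at 10, Obox3 at 14 and Obox6 at 32. Over the whole aligned coding sequence, Obox2 was identical to Obox1 at 446 of 453 bases (98.45%). The identity with Obox1 was 95.59% for Obox5, 93.95% for Obox3 and 77.45% for Obox6.

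A read can be assigned to 1 gene only if it holds letters that no other gene has. Of all stretches of 50 bases in annotated transcripts, 42.6% of those of Obox1 and 34.9% of those of Obox2 were found in no other gene. Obox1 shared 56.4% of its stretches with Obox2, and Obox2 shared 62.7% of its own with Obox1. At 100 bases, 57.7% of the stretches of Obox1 and 52.8% of those of Obox2 were found in no other gene. Obox5 (81.9% at 50 bases), Obox3 (79.8%) and Obox6 (94.98%) were more distinct. How the authors' counting treated reads that match several genes is not stated in the sources used here, so the split of counts between Obox1 and Obox2 is uncertain. Their strand setting is not given either. The sum over the 5 members, called the family sum below, does not depend on how reads were split among the members, although it can still lose reads that match more than 1 gene.

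**Figure D1:**
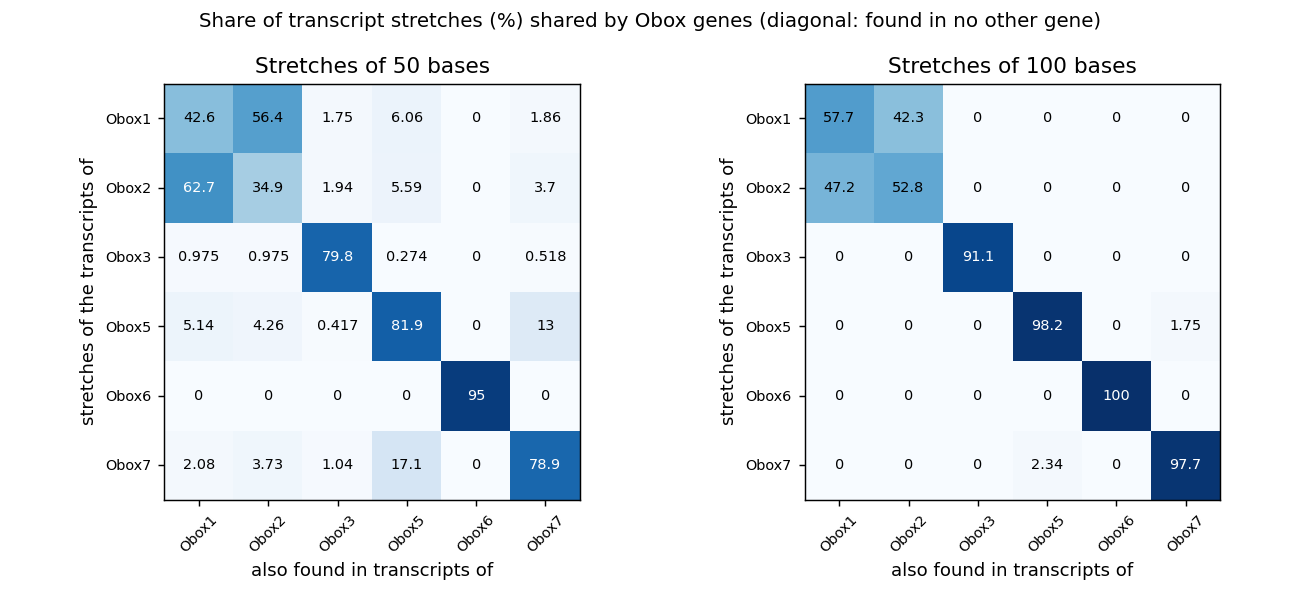
Share of transcript stretches of 50 bases (left) or 100 bases (right) of the gene in each row that also occur in the gene of each column, in percent, for 6 Obox genes; the diagonal gives the share found in no other gene. Obox1 and Obox2 share the most, 56.4% and 62.7% of their 50-base stretches, while Obox6 shares none with the other 5 genes shown.

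The promoter windows of the members that carry nearly all counts are printed because Obox2 passed tests below that Obox1 did not, although much of the sequence before both genes has the same letters. Each window runs from 250 bases before to 50 bases after the gene start in RefSeq (GRCm38.p6), on the gene's own strand, and it had an entry for Obox1, Obox2, Obox3 and Obox5. Capitals mark the motifs CCAAT or TATATAAG on either strand. The windows are chr7:15547007-15547306 for Obox1, chr7:15388601-15388900 for Obox2 and chr7:15750120-15750419 for Obox5, all on the forward strand. In GENCODE vM21, which names the counted rows, Obox1 starts at chr7:15388948, close to Obox2, and Obox2 at chr7:15388721. The RefSeq windows therefore do not cover every annotated start of these rows.
Obox1: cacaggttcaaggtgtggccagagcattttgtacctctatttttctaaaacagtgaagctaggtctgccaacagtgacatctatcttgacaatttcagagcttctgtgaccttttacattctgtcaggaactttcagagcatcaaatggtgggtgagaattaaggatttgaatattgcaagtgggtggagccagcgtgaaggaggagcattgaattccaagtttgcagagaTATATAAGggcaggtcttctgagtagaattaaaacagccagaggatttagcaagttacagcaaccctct
Obox2: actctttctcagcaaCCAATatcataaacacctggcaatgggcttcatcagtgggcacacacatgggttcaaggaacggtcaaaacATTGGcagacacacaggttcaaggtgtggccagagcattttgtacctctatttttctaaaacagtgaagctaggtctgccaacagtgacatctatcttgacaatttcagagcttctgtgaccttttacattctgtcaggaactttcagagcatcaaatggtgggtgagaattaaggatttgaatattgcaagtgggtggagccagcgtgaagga
Obox5: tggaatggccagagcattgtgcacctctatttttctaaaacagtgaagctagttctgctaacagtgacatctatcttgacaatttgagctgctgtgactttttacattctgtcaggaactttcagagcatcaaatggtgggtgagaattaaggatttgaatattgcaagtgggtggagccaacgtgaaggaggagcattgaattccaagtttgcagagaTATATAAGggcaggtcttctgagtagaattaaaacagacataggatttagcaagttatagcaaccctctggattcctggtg
Where the windows of Obox1 and Obox2 align, 203 of 203 bases were identical, and the window of Obox5 matched that of Obox1 at 95.49% of aligned bases. The letters TATATAAG, chosen after the windows had been read and found in 1.01% of 32851 promoters of the same length, were present once in Obox1, Obox3 and Obox5. The window of Obox2 aligns with the part of the Obox1 window that lies before this stretch. CCAAT, the letters of the NF-Y box, was found in 37.4% of promoters, with 2 matches in Obox2 and 1 in Obox3. Those of Obox2 start at bases 16 and 87 of its window, before the part that aligns with the Obox1 window. The sequence before the Obox1 window was not searched, so these matches do not set Obox2 apart from Obox1. The E-box CACGTG bound by c-Myc and Max, present in 7.15% of promoters, and the NOBOX element TAATTG (8%) had no match in these 4 windows. TAATCC, the letters preferred by lysine-type homeodomains (7.06% of promoters), had 1 match, in Obox3. The motifs do not overlap one another, and a match describes letters, not binding.

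Library totals ran from 5371602 to 31540627 counts, with a median of 22594555.5. Levels are given as CPM, a gene's counts relative to all counts of its library and scaled to a common total. A count of 0 allows a level of up to 0.0951 to 0.558 CPM per library (3 counts), and such floors cover counting error only. All 13 oocyte markers had counts in every group. The summed cumulus and granulosa markers (15 genes) ran from 7.35 to 75.5 CPM over the libraries. Of 9 sperm and spermatid markers, 4 were at 0 in all libraries. The shallowest library, replicate 3 of alpha-amanitin, stands apart in several values below.

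The group means of the family sum lay between 1743 and 2068 CPM in all 5 groups. In MII oocytes it was 2113, 2022, 2107 and 2032 CPM, a mean of 2068 ± 48.2 (SD, n = 4). Untreated embryos of the second series gave 1868, 2268, 1709 and 1984 CPM (1957 ± 236, SD, n = 4), and alpha-amanitin embryos 2282, 1929, 1753 and 1689 CPM (1913 ± 266, SD, n = 4). In the first series the sum ran from 1397 to 1946 CPM (median 1815) in untreated embryos and from 1683 to 2254 CPM (median 1878) with 10058-F4. The means there were 1743 ± 203 and 1904 ± 183 CPM (SD, n = 7 each). From high to low the order of the means was oocytes, untreated embryos of the second series, alpha-amanitin embryos, 10058-F4 embryos and untreated embryos of the first series. No neighbours in this order differed by more than their spread, and the ranges of the groups overlapped in each comparison made. Oocytes and untreated embryos of the first series, which come from different series and were not compared, did not overlap (2022 to 2113 and 1397 to 1946 CPM).

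Set against their references, the family sums differed little. The log2 ratio of the means was 0.13 for 10058-F4 against its control and -0.03 for alpha-amanitin against its control. It was -0.08 for untreated embryos of the second series against oocytes and -0.11 for alpha-amanitin embryos against oocytes. Leaving out each library in turn gave 0.08 to 0.16, -0.13 to 0.046, -0.16 to -0.02 and -0.21 to -0.057, in the same order. The sign for alpha-amanitin against its control turned without control replicate 2 (0.046) or alpha-amanitin replicate 3 (0.0067) or 4 (0.023). The family sum carries no test, since its members were chosen with results of these data known. Whether a library holds 1 oocyte or embryo or several is not stated outright, and a CPM is a share of its library, so the amount of RNA per embryo was not measured.

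**Figure D2:**
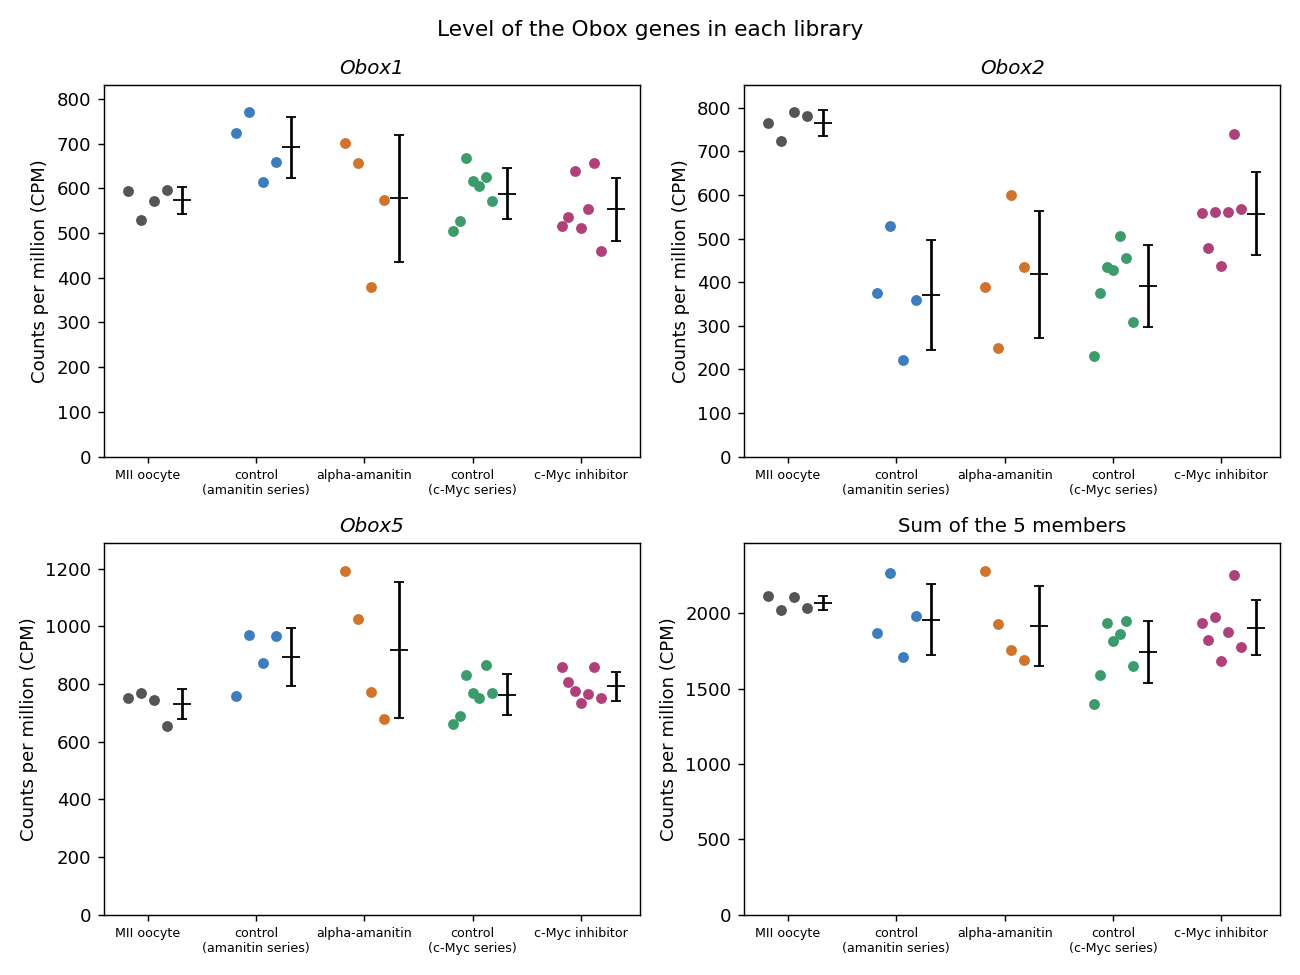
CPM of Obox1, Obox2, Obox5 and of the sum of the 5 members in each of 26 libraries, by group; points are libraries, and the bar beside them is the mean with the SD. The Obox2 points of MII oocytes, from 723 to 790 CPM, lie above those of all but 1 of the embryo libraries. The family sums overlap in each comparison made, while those of first-series controls (up to 1946 CPM) lie below those of oocytes (from 2022 CPM).

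Obox1, Obox2 and Obox5 made up nearly all of the family counts, and they shared them differently in oocytes and embryos. Divided by exon length, the levels in MII oocytes were 465 ± 18.04 CPM per kilobase for Obox2, 342 ± 24.3 for Obox5 and 302 ± 16.4 for Obox1 (SD, n = 4). In untreated embryos of the second series the order was Obox5 (418 ± 46.9 CPM per kilobase), Obox1 (364 ± 36.4) and Obox2 (225 ± 76.4, SD, n = 4). In alpha-amanitin embryos Obox5 stood at 429 ± 110, Obox1 at 304 ± 74.6 and Obox2 at 254 ± 88.5 CPM per kilobase (SD, n = 4). Without the shallowest library these were 452 ± 123, 339 ± 33.8 and 217 ± 59.4 (SD, n = 3). Untreated embryos of the first series gave 357 ± 33.7 for Obox5, 310 ± 30.2 for Obox1 and 238 ± 57.2 CPM per kilobase for Obox2 (SD, n = 7). In 10058-F4 embryos Obox5 was at 371 ± 23.6, Obox2 at 339 ± 57.7 and Obox1 at 291 ± 37.2 CPM per kilobase (SD, n = 7). By this measure Obox2 was the highest member in oocytes and the lowest of these 3 in the means of both untreated embryo groups. The whole exon length was used, although 34.9% of the 50-base stretches of Obox2, 42.6% of Obox1 and 81.9% of Obox5 were found in no other gene. The order of the genes within a group may therefore depend on how shared reads were counted, which is not stated.

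Obox2, whose coding sequence of 453 bases is the shortest of the 5, was the 1 member called between oocyte and untreated embryo. In MII oocytes it stood at 766, 723, 790 and 782 CPM. In untreated embryos of the second series it was at 375, 529, 222 and 358 CPM. The 4 oocyte libraries were all higher than the 4 embryo libraries and lay close together, while the embryo libraries differed by more than 2-fold among themselves. The means were 765 ± 29.7 CPM in oocytes and 371 ± 126 CPM in embryos (SD, n = 4 each). In the edgeR quasi-likelihood test fitted across 13133 genes, Obox2 fell by 1.00 on the log2 scale (SE 0.242, 95% interval -1.51 to -0.49, adjusted p = 0.0250). An adjusted p (Benjamini-Hochberg) under 0.05 is a call here.

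Of the 3 members tested in this comparison of untreated embryos with oocytes, 1 was called, against 2.89% of all genes tested (1.78% were called lower). Obox1 was at 595, 529, 572 and 596 CPM in oocytes and at 724, 770, 614 and 658 CPM in these embryos. Its embryo libraries were all above the oocyte libraries, but the fitted difference of 0.31 (SE 0.167) was not called (edgeR adjusted p = 0.457). Groups without overlap were found for Obox1 and Obox2, 2 of 3 members tested, and for 14.6% of all genes. Obox5 stood at 752, 769, 744 and 653 CPM in oocytes and at 758, 970, 874 and 968 CPM in embryos, with a fitted difference of 0.33 (SE 0.164, edgeR adjusted p = 0.386). The lowest Obox5 embryo library lay inside the oocyte range. Over all genes tested the median log2 fold change was -0.03.

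The call of Obox2 in this comparison sits near the threshold. It was lost on leaving out oocyte replicate 1 (adjusted p = 0.0671), 3 (0.0750) or 4 (0.0735), or untreated embryo replicate 1 (0.0665), 3 (0.0766) or 4 (0.0742), in the same edgeR test. Without each library in turn, the log2 fold change ran from -1.24 to -0.82. Of the 13 oocyte markers, 0 were called higher and 7 lower in the same comparison. Their summed level ran from 11010 to 11940 CPM in oocytes and from 5509 to 6995 CPM in untreated embryos. The means of Dppa3 (637 to 827 CPM) and Ooep (469 to 479 CPM) were higher in untreated embryos, without a call, and those of the other markers were lower. The part of the oocyte markers in the result for Obox2 was not tested.

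Embryos given alpha-amanitin also held less Obox2 than oocytes, at 389, 248, 601 and 436 CPM (418 ± 146, SD, n = 4). All 4 lay below the lowest oocyte library, and the highest of them was replicate 3, the shallowest library. The fitted difference from oocytes was -0.88 (SE 0.242, 95% interval -1.38 to -0.37), and it was not called (edgeR adjusted p = 0.0780). Of the 3 members tested, 0 were called, against 1.71% of all genes, while Obox2 alone had an unadjusted p under 0.05 in edgeR, as did 10.6% of all genes. Without alpha-amanitin replicate 3 the difference was -1.12 and was called (edgeR adjusted p = 0.00939), as it also was without untreated embryo replicate 2 (-0.89, adjusted p = 0.0496) or 3 (-0.90, adjusted p = 0.0360), which share the fit. DESeq2 (-0.83, adjusted p = 0.0155) and limma voom (-1.05, adjusted p = 0.000298) called it with all libraries. Obox1 (0.01, SE 0.166, edgeR adjusted p = 0.999) and Obox5 (0.33, SE 0.164, adjusted p = 0.530) were not called. Non-overlapping groups were found for Obox2 alone, 1 of 3 members tested, and for 11.4% of all genes. This comparison and the one before it share the oocyte libraries.

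Alpha-amanitin embryos were next compared with the untreated embryos of their series, which asks what blocking RNA polymerase II does to the stored transcripts. Of the 3 members tested, 0 passed the edgeR test, against 0.0305% of all genes (4 of 13133). By unadjusted p under 0.05 it was 7.51% (986 genes), and DESeq2 called 123 after adjustment. None of the 3 members had an unadjusted p under 0.05, and DESeq2 and limma voom called 0 of them. Obox1 was at 700, 656, 380 and 574 CPM with alpha-amanitin (578 ± 142, SD, n = 4), and the control mean was 691 ± 69.1 CPM. Its fitted difference was -0.31 (SE 0.167, 95% interval -0.65 to 0.04, adjusted p = 0.774 in edgeR), and without alpha-amanitin replicate 3, its lowest library, -0.17 (adjusted p = 0.891). Obox2 differed by 0.12 (SE 0.240, 95% interval -0.38 to 0.62, adjusted p = 0.998 in edgeR), and without alpha-amanitin replicate 3 by -0.12 or without control replicate 3 by -0.07. Obox5 was at 1193, 1025, 772 and 679 CPM with alpha-amanitin (917 ± 235, SD, n = 4) against 893 ± 100 CPM in the control. Its fitted difference was -0.01 (SE 0.164, 95% interval -0.35 to 0.34, adjusted p = 0.999 in edgeR), and its sign turned under other scalings. The groups overlapped for all 3 members, and 2.64% of all genes had groups without overlap. The intervals of all 3 members include differences of either sign.

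With the c-Myc inhibitor 10058-F4, Obox2 was higher than in untreated embryos of the same series, on average. Obox2 was at 231, 375, 435, 427, 506, 456 and 310 CPM in the 7 untreated libraries and at 559, 479, 560, 437, 560, 740 and 567.5 CPM in the 7 treated ones. The ranges overlap: 5 treated libraries lie above the highest control, and the lowest treated library lies below 2 controls. The means were 392 ± 94.2 and 557.6 ± 95.03 CPM (SD, n = 7 each). Obox2 rose by 0.52 on the log2 scale (SE 0.140, 95% interval 0.23 to 0.81, adjusted p = 0.0157 in the edgeR test across 13003 genes). Of the 3 members tested, 1 was called, against 10.9% of all genes (6.82% were called higher). The fold change of Obox2 stood at percentile 84.6 of all genes tested.

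Obox1 and Obox5 were not called with 10058-F4. Obox1 ran from 504 to 667 CPM (median 606) in controls and from 461 to 656 CPM (median 536) in treated libraries. Its fitted difference was -0.07 (SE 0.0880, 95% interval -0.26 to 0.11, edgeR adjusted p = 0.730). Obox5 ran from 662 to 865 CPM (median 770) in controls and from 734 to 859 CPM (median 777) with the inhibitor, a difference of 0.07 (SE 0.0724, 95% interval -0.08 to 0.22, edgeR adjusted p = 0.665). The groups overlapped for all 3 members, and 4.05% of all genes had groups without overlap. The call of Obox2 was kept on leaving out each of the 14 libraries in turn (adjusted p from 0.00702 to 0.0471) and lost in 1 fit of all 5 groups (0.51, adjusted p = 0.146). Of the 13 oocyte markers, 7 were called higher and 0 lower in the same comparison. The largest rises in mean CPM were those of Gdf9, an oocyte growth factor (415 to 1944), and H1foo (557 to 1740). The means of Bmp15 (1375 to 1206 CPM), Nlrp5 (1111 to 1017), Ooep (382 to 330) and Dppa3 (730.5 to 653.5) were lower with 10058-F4, without a call. The summed level of all 13 markers ran from 5151 to 7653 CPM in controls and from 8326 to 10390 CPM in treated libraries. The part of these markers in the result for Obox2 was not tested.

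**Figure D3:**
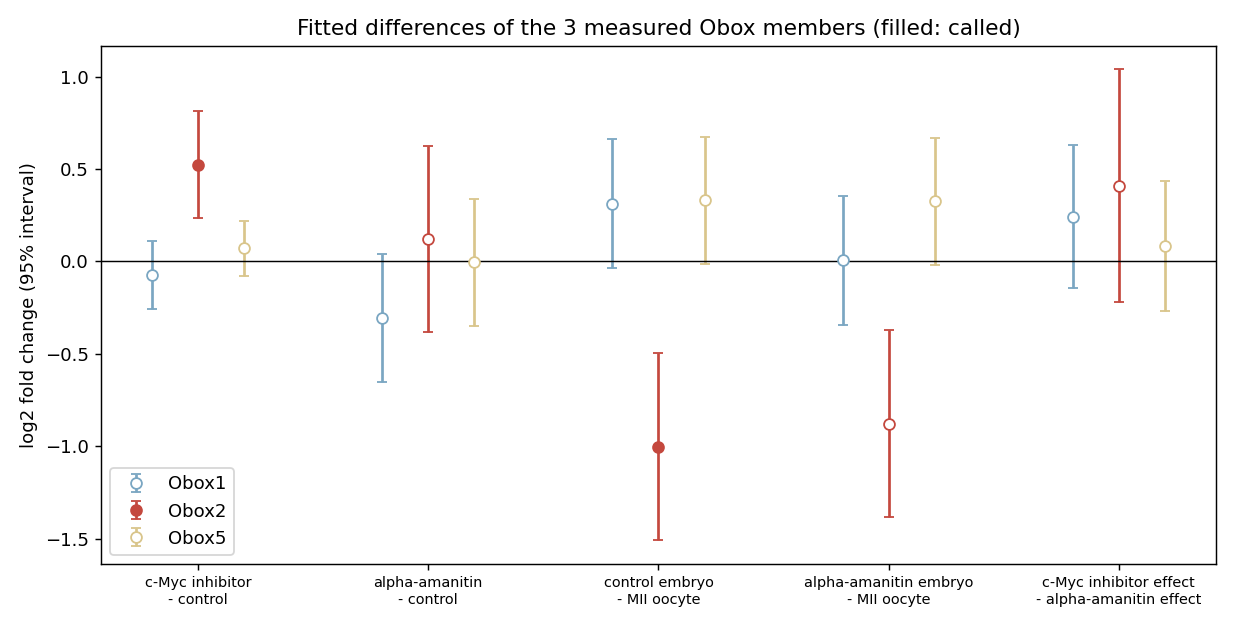
Fitted log2 fold changes of Obox1, Obox2 and Obox5 in 5 comparisons, with 95% intervals; filled points are called at an adjusted p under 0.05 in edgeR. Obox2 is the called member in the comparison of 10058-F4 with its control (0.52) and of untreated embryos with MII oocytes (-1.001), and no member is called in the other 3.

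The difference between the effects of the inhibitors was tested in 1 fit of the 22 embryo libraries. The effect of 10058-F4 on Obox2 exceeded that of alpha-amanitin by 0.41 (SE 0.307, 95% interval -0.22 to 1.04), which was not called (edgeR adjusted p = 0.565). The differences were 0.24 for Obox1 (SE 0.189, adjusted p = 0.590 in edgeR) and 0.08 for Obox5 (SE 0.172, adjusted p = 0.896 in edgeR). Obox3 passed the filter on low counts in this fit alone and gave -1.53 with an SE of 3.32. Of these 4 members 0 were called, against 1.04% of 15790 genes, and 0 had an unadjusted p under 0.05, against 17.3% of genes. DESeq2 and limma voom called 0 of Obox1, Obox2 and Obox5.

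The share of Obox2 in the family counts restates the same counts within each library, where depth and scaling cancel. It is not separate support, and it depends on how reads were split between Obox1 and Obox2. In MII oocytes Obox2 held 36.3%, 35.8%, 37.5% and 38.5% of the family counts. It held 20.1%, 23.3%, 13.0% and 18.1% in untreated embryos of the second series. With alpha-amanitin the shares were 17.03%, 12.8%, 34.3% and 25.8%, the third from the shallowest library. In the first series they ran from 16.5% to 27.1% (median 23.5%) in untreated embryos and from 25.96% to 32.8% (median 28.9%) with 10058-F4. The mean shares were 37.0 ± 1.22%, 18.6 ± 4.34%, 22.5 ± 9.54%, 22.2 ± 3.50% and 29.2 ± 2.61% in the same order of groups. Without the shallowest library the alpha-amanitin share was 18.6 ± 6.62% (SD, n = 3).

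**Figure D4:**
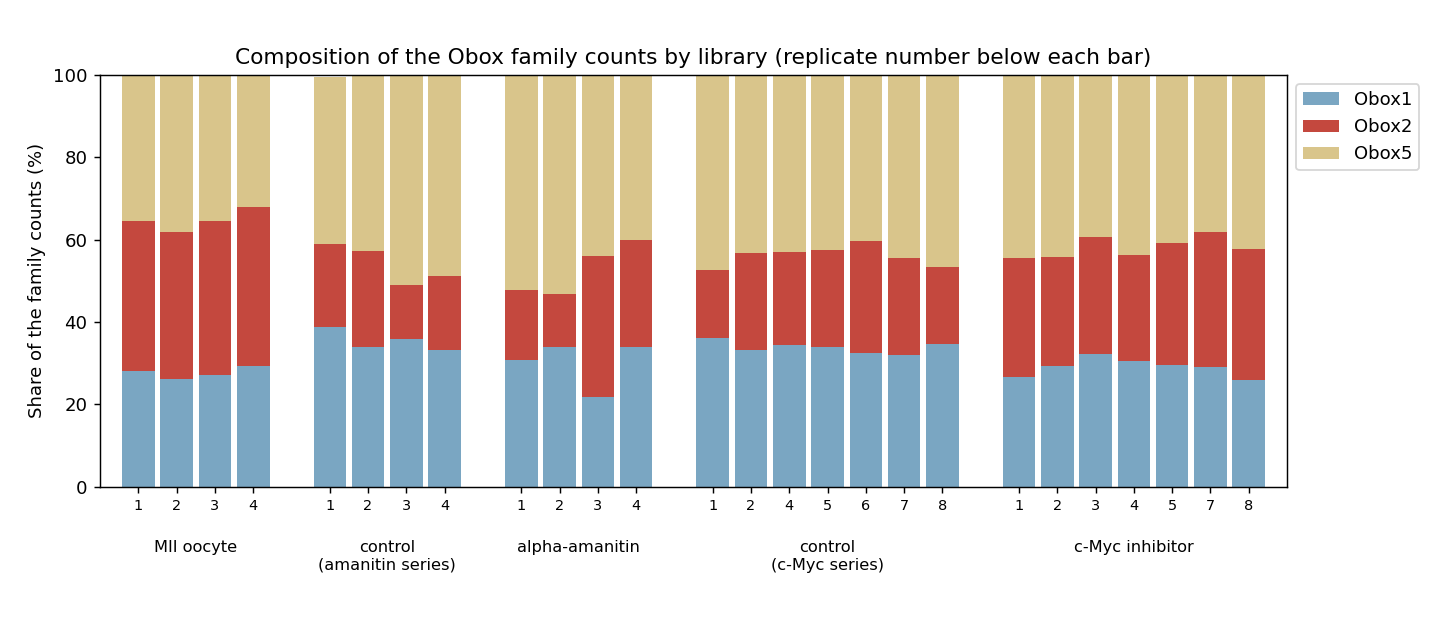
Share of the family counts held by Obox1, Obox2 and Obox5 in each library, in percent, with bars grouped by condition and numbered by replicate; Obox3 and Obox6 fill the rest, which is largest (0.534%) in replicate 1 of the second-series controls. Obox2 takes 35.8% to 38.5% in oocytes, 13.0% to 27.1% in untreated embryos and 25.96% to 32.8% with 10058-F4.

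The ratio of Obox2 counts to Obox1 counts, chosen after the values of Obox2 were seen, carries no test. It ran from 1.29 to 1.38 in oocytes and from 0.361 to 0.687 in untreated embryos of the second series. It was 0.555, 0.378, 1.58 and 0.760 in the alpha-amanitin libraries. In the first series it ran from 0.459 to 0.835 in untreated embryos and from 0.854 to 1.23 with 10058-F4. Obox2 held more counts than Obox1 in 4 of 4 oocyte libraries, 0 of 11 untreated embryo libraries, 1 of 4 alpha-amanitin libraries and 4 of 7 libraries with 10058-F4. The ratio of Obox1 to Obox5 ran from 0.722 to 0.805 in first-series controls and from 0.599 to 0.822 with 10058-F4. Over the 26 libraries, log2 levels of Obox1 and Obox5 had a Pearson r of 0.53, those of Obox1 and Obox2 of -0.11, and those of Obox2 and Obox5 of -0.21. These libraries fall into 5 groups, so r is a description.

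Obox3 and Obox6 were near the floor in nearly every library, and 2 of 5 members therefore had too few counts to be tested within either series. Obox3 had 45 counts in oocyte replicate 3 and 0 in the other 3 oocyte libraries. It had 27, 21 and 30 counts in replicates 2, 5 and 8 of the first-series controls, and 19 in replicate 2 with 10058-F4, beside single counts in 2 other treated libraries. In the second series, untreated and alpha-amanitin embryos held 1 count each. Obox6, the most divergent member, had 151 counts (9.96 CPM) in untreated embryo replicate 1 of the second series and 0 in the other 3 libraries of that group. Elsewhere its highest counts were 13 in alpha-amanitin replicate 2 and 12 in oocyte replicate 4. Counts in 1 library of a group do not describe the group, so no fold is given.

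Of the 50 other rows whose symbol starts with Obox, Obox7 alone had a level near that of the members. Obox7, a close copy of Obox5 with 96.02% of aligned coding bases identical, held 48948 counts over all libraries. Its mean was 91.9 ± 17.5 CPM in oocytes, 126 ± 34.9 in untreated and 109 CPM in alpha-amanitin embryos of the second series (SD, n = 4), and 78.6 and 62.6 CPM in untreated and 10058-F4 embryos of the first series. It was called in 0 of 5 comparisons by edgeR, with its lowest adjusted p at 0.182 for 10058-F4 (log2 fold change -0.31, SE 0.141, unadjusted p = 0.0359). The 48 rows named as Obox pseudogenes together held 1327 counts, 0.117% of all Obox counts. The others with 3 counts in at least 3 libraries were Obox3-ps1, Obox3-ps4, Obox3-ps5, Obox3-ps8, Obox4-ps2, Obox4-ps3 and Obox4-ps6, and 25 rows were at 0 throughout.

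Other regulators of the oocyte and of genome activation give the setting in which Obox2 moved. Of 14 genes tested from a list of oocyte transcription factors and RNA regulators, 3 rose and 1 fell with 10058-F4 (median log2 fold change -0.03), against 10.9% of all genes called. Of the 3 that rose, Zar1 and Ybx2 are RNA-binding proteins, and Zar1 is also in the list of oocyte markers. Zar1, which binds maternal mRNA, rose by 1.02 (SE 0.103, edgeR adjusted p = 1.9e-07), Sall4, a zinc finger factor, by 0.48, and Ybx2, an mRNA-masking protein, by 0.40. Against oocytes, untreated embryos had 1 higher and 2 lower (2.89% of all genes were called): Zar1 fell by 1.71, Sall4 fell by 0.69, and Pou5f1, a pluripotency factor, rose by 0.84. Alpha-amanitin embryos had 0 higher and 2 lower against oocytes, Zar1 and Sall4 (1.71% of all genes were called). Against their control edgeR called 0 of 14 (0.0305% of all genes were called). An unadjusted p under 0.05 was found for 0, against 7.51% of all genes, with the smallest p for Figla and Sall4. In the difference of the inhibitors' effects 2 of 14 were higher for 10058-F4, Zar1 (1.03) and Sall4 (0.65), against 1.04% of all genes called.

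Among factors of genome activation, 3 of 23 tested rose and 1 fell with 10058-F4, against 10.9% of all genes called. Nfya, a subunit of the CCAAT-binding factor NF-Y, rose by 0.88 (SE 0.138, edgeR adjusted p = 9.1e-05), Esrrb, a nuclear receptor, by 0.84, and Smarca4, a chromatin remodeller, by 0.29. In untreated embryos against oocytes, 2 of 26 rose, among them Klf17 (0.93), a zinc finger factor of the early embryo, and Nfya fell by 1.56 (2.89% of all genes were called). In alpha-amanitin embryos against the same oocytes 2 of 26 rose and 0 fell, against 1.71% of all genes called, and Klf17 rose by 0.74. With alpha-amanitin against its control 0 of 26 were called by edgeR, against 0.0305% of all genes. An unadjusted p under 0.05 in edgeR was found for 2 of 26, against 7.51% of all genes. Of the 8 related homeobox genes, 3 could be tested within the series. By edgeR 0 were called in any of the 5 comparisons, against 0.0305% to 10.9% of all genes. In the difference of effects 1 had an unadjusted p under 0.05, against 17.3% of all genes, and 0 did elsewhere. Otx1, a paired-class factor of the head, had means of 3.63 to 21.1 CPM over the groups.

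By the Pearson r of log2 levels over all 26 libraries among 7280 genes, the genes most like the family sum included Ireb2 (r = 0.62), Gfpt1 (0.61), Accsl (0.60) and Oosp1 (0.59). The median r over all genes compared was 0.03, and Gfpt1, Oosp1 and Ireb2 were also among the 5 with the highest Spearman rho. The libraries share groups and depth, so these values describe likeness only.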

How the data were processed

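The values analysed are the authors' raw read counts, deposited as 1 table with 55401 Ensembl genes and 26 libraries. Trimming with cutadapt 1.7.1 and alignment to GRCm38 with STAR 2.5.0a are named per the submitters' processing notes. The counting program, its annotation, its strand setting and its treatment of reads that match several genes are not stated in the sources used here. GENCODE vM21 gave a symbol for 55141 IDs and none for 260.

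Tests were run with edgeR 4.0.16 in R 4.3.3 (quasi-likelihood test, TMM scaling, filterByExpr with a minimum count of 10 and a minimum total of 15, Benjamini-Hochberg threshold 0.05). The c-Myc inhibitor series (13003 genes) and the alpha-amanitin series (13133 genes) were fitted separately, and the difference of the inhibitors' effects in 1 fit of the embryo libraries (15790 genes). No pair of libraries held identical values (0 found). CPM used raw totals. The models were tested on simulated data before use. Stretches shared between genes came from GENCODE transcripts, coding sequences were aligned with mafft 7.526, and promoters came from RefSeq (GRCm38.p6). Coding identity was used in place of protein identity, since protein sequences were not used here, and no promoter of Obox6 was used.

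The members, gene lists and tests were chosen with earlier results of these data known. All 5 members were named, with other Obox rows that had at least 3 counts in 3 libraries, up to 4 called genes of smallest p per list and comparison (2 of smallest p where fewer were called), and the 5 genes most like the family sum among those with a mean of at least 10 CPM (log2 of TMM-scaled CPM plus 1). Not every gene named by this rule is reported here. Alternatives were other scalings (RLE, library totals), no filter, DESeq2 1.42.0, limma 3.58.1 voom, a replicate block, 1 fit of all 5 groups, and leaving out each library.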

Additional observations from a re-analysis of the deposited data

Results flagged for a closer look

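In groups of 4 or 7 libraries, Dixon's test at the 95% level was run on each member and the family sum. It set the highest library apart in 10 of 30 cases. The nominal rate of about 1 in 20 does not apply to members mostly at 0, where a library with counts is set apart almost by construction. The number of cases is therefore not compared with that rate. Obox2 in 10058-F4 replicate 7 was at 740 CPM, and the next library was at 567.5 CPM. Without this library Obox2 still rose, by 0.44 (edgeR adjusted p = 0.0471).

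The other 9 are of the members near the floor, where a library with a few counts stands beside libraries at or near 0. For Obox3 these were oocyte replicate 3 (1.73 CPM), replicate 3 of the second-series controls (0.0457 CPM), alpha-amanitin replicate 1 (0.0317 CPM) and 10058-F4 replicate 2 (0.842 CPM). For Obox6 they were oocyte replicate 4 (0.646 CPM), replicate 1 of the second-series controls (9.96 CPM), alpha-amanitin replicate 2 (0.665 CPM), replicate 6 of the first-series controls (0.340 CPM) and 10058-F4 replicate 3 (0.0820 CPM).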

How the results depend on the processing

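A tested fold change was counted as kept where its direction and side of the threshold held, a count of genes where it moved by less than 1.5 times, and a family sum where it moved by less than 1 SD. By this measure 159 of 197 values were kept over the alternatives other than leaving out single libraries, and 295 of 344 on leaving out each library. Family sums counted as kept include some near 0 whose sign turned: 10058-F4 without Obox2 (-0.0059), and alpha-amanitin against its control without Obox1 (0.077) or without single libraries (-0.13 to 0.046 over all). Obox3 and Obox6 had too few counts to be tested within either series. Without the shallowest library the SD of the alpha-amanitin group was smaller for Obox1 (64.1 against 142 CPM) and Obox2 (97.8 against 146 CPM). It was larger for Obox5 (262 against 235 CPM) and for the family sum (298 against 266 CPM). The causes of the changes below were not tested.

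In 1 fit of all 5 groups Obox2 lost its call with 10058-F4 (0.51, adjusted p = 0.146) and gained one in alpha-amanitin embryos against oocytes (-0.88). The latter was also gained with no filter (-0.91), DESeq2 (-0.83), limma voom (-1.05) and without the deepest and the shallowest alpha-amanitin library (-1.20), a choice made after seeing the data. That choice turned Obox2 against the alpha-amanitin control to -0.20. There Obox5 turned to 0.0077 with RLE factors, 0.05 with library totals, 0.0079 with DESeq2 and 0.060 with voom. Obox1 in alpha-amanitin embryos against oocytes turned to -0.014 with no filter, -0.028 with the replicate block and -0.00447 in 1 fit of all groups. With the replicate block Obox2 in untreated embryos against oocytes was -0.99 (edgeR adjusted p = 0.0564) and with 10058-F4 0.62 (0.00893). In the first series this fit also left out control replicate 6 and 10058-F4 replicate 3, whose numbers occur in 1 group only. Without control replicate 6 alone and with no block, the value was 0.60. Deviations of same-numbered libraries correlated at -0.026 to 0.0413 (6 pairs, first series) and -0.031 to 0.049 (12 pairs, second series). Other pairs correlated at -0.0561 to 0.0403 and -0.0635 to 0.0901. Whether a shared number marks libraries handled together is not given by the labels, and these correlations cannot decide it.

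Genes called moved from 1418 to 381 for 10058-F4 in 1 fit of all groups. For alpha-amanitin against its control, 4 became 89 (no filter), 123 (DESeq2), 10 (voom), 0 (replicate block; edgeR) and 103 (1 fit). For untreated embryos against oocytes, 380 became 769 (DESeq2), 940 (voom), 653 (without the deepest and shallowest) and 1409 (1 fit). For alpha-amanitin embryos against oocytes, 225 became 472 (no filter), 530 (DESeq2), 542 (voom) and 859 (1 fit). For the difference of effects, 165 became 443 (no filter), 1042 (DESeq2) and 38 (replicate block).

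The family sum of untreated embryos against oocytes was -0.24 without Obox1, 0.28 without Obox2 and -0.33 without Obox5; that of alpha-amanitin embryos was 0.20 without Obox2 and -0.43 without Obox5. By Spearman rho, 3 of the 5 genes most like the family sum were the same.

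Leaving out each library gave 1153 to 1472, 0 to 6, 212 to 725, 122 to 330 and 92 to 272 genes called for 10058-F4, alpha-amanitin, untreated and alpha-amanitin embryos against oocytes, and the difference. For Obox2 the ranges were 0.41 to 0.60, -0.12 to 0.35, -1.24 to -0.82, -1.12 to -0.71 and 0.17 to 0.64, in the same order. Obox1 ranged from -0.12 to -0.03, -0.43 to -0.17, 0.24 to 0.36, -0.13 to 0.15 and 0.09 to 0.36, and Obox5 from 0.03 to 0.11, -0.18 to 0.11, 0.27 to 0.41, 0.15 to 0.44 and -0.045 to 0.25.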

Other observations

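The genes whose levels were most like those of Obox2 alone, a pattern chosen after its values were seen, were Dcp1a (r = 0.84), Rragc (0.84), Nfya (0.83), Stk35 (0.82) and Heatr5a (0.82) over 26 libraries and 7280 genes. The median r over these genes was -0.02. Dcp1a, a subunit of the mRNA decapping complex, had means of 2120 CPM in oocytes, 617 in untreated and 514 in alpha-amanitin embryos of the second series, and 691 and 1948 CPM in untreated and 10058-F4 embryos of the first. Rragc, a GTPase of the mTORC1 pathway, had 631, 323, 410.2, 356 and 563 CPM in the same order. In both genes, as in Obox2, the oocyte mean was the highest and the 10058-F4 mean came next. Both were picked by their likeness to Obox2 in these libraries, so the shared order is not a separate result. For Obox1 the gene with the highest r was Mgst3 (0.80), and for Obox5 it was Bcl2l10 (0.70), followed by Rsbn1 (0.67) and Btg4 (0.66), an adaptor of the deadenylase that removes maternal mRNA tails.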
